A study of Homo sapiens with 12 samples.

Results

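In U251 cells, an established human glioblastoma line, 188 of the 45416 genes in the table were higher with an siRNA against *PD-L1* (siPDL1-2) than with the control siRNA in unstimulated cells and lay under a limit against it after IFNγ. They were chosen by a rule on the normalized expression values in CPM, the number of reads on a gene scaled to the size of its library. The lower of both unstimulated siPDL1-2 libraries had to be at least 1.5 times the highest of the 4 other unstimulated libraries. After IFNγ, the mean with siPDL1-2 had to stay below 1.2 times the mean with the control siRNA, and in 35 of the 188 genes it was at or above that mean. The mean of all 12 libraries had to reach 5 CPM, which 11588 genes did, and 1 further gene was left out by its name. Cells of 1 line were transfected with the siRNA control (siNC), siPDL1-1 or siPDL1-2 at 50 pmol per well for 48 h and were left without IFNγ or given 100 U/ml of it for 24 h. Each of the 6 groups held 2 libraries of poly(A) RNA, numbered 1 and 2, from cells described as wild type, and the study describes them as independent experiments. The labels do not say so, and a p-value here measures the spread between these libraries.

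PD-L1, encoded by *CD274*, is a surface protein by which tumor cells restrain T cells through the receptor PD-1, and IFNγ is the T cell cytokine that raises it. An siRNA is a short double-stranded RNA whose guide strand leads to cleavage of the matching mRNA, and it can also lower mRNAs that match only its seed. The 3′ untranslated region (3′ UTR) of an mRNA follows the coding sequence and carries binding sites of microRNAs and RNA-binding proteins, while the promoter lies around the transcription start.

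The promoters of 4 of the genes with the highest ratio are shown because the start regions of these genes were rich in G and C although the transcripts were not. RefSeq held a promoter for 156 of the 188 genes, from 250 bases before to 50 bases after the start on GRCh38.p14. Each is written 5′ to 3′ on the strand of its gene, and capitals mark matches to the CCAAT box, to the motif GGGCGG and to the E-box CACGTG on either strand, with overlapping matches run together. *TMED7* lies on the minus strand with its promoter at chr5:115625987-115626286. The others lie on the plus strand, *CASD1* at chr7:94509559-94509858, *BMI1* at chr10:22320849-22321148 and *SCAMP1* at chr5:78360367-78360666.
TMED7: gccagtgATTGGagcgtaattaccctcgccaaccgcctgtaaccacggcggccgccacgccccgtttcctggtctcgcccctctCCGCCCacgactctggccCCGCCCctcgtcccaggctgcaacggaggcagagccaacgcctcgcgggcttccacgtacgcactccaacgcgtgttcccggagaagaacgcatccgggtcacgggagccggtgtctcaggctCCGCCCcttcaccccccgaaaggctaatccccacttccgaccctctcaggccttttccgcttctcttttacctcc
CASD1: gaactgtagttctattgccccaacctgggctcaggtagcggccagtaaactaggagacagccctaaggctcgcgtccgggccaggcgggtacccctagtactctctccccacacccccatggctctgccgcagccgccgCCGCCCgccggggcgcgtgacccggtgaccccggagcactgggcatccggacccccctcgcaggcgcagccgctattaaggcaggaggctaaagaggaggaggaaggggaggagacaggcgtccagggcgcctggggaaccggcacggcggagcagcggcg
BMI1: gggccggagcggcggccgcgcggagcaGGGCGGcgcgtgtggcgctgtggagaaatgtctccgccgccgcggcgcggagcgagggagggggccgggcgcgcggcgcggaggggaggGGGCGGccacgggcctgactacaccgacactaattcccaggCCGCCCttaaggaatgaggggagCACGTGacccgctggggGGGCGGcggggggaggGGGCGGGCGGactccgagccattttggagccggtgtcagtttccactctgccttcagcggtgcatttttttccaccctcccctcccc
SCAMP1: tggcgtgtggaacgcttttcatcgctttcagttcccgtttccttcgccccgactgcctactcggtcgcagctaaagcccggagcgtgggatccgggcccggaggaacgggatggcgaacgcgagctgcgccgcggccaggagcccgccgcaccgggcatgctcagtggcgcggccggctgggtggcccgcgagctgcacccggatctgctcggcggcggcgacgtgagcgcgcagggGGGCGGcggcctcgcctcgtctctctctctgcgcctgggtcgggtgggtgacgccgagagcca
These 4 promoters held 66.0%, 69.3%, 73.3% and 72.3% G and C, whereas the transcripts of the same genes held 36.1%, 38.4%, 40.1% and 34.2%. The median was 67.2% over the 156 promoters, 65.3% over 9147 promoters of other genes above 5 CPM and 58.3% over all 27305 promoters. GGGCGG, the core of the box bound by SP1, was present in 71.2% of the 156, in 71.5% of the promoters of other genes above 5 CPM and in 44.6% of all promoters. CCAAT was present in 40.4%, 37.6% and 35.7%, and CACGTG, the E-box, in 9.62%, 10.5% and 7.43%. TATAAA was present in 5.13%, 5.05% and 12.0%. The cyclic AMP element TGACGTCA was present in 1.92%, 3.44% and 1.98%, the AP-1 site TGACTCA in 3.85%, 2.83% and 4.92%, and the C/EBP-ATF site TGATGCAA in 1.28%, 0.448% and 0.923%. A match describes the letters only.

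The name given to these genes describes the rule rather than the whole of their levels, because most of them were also high in every group given IFNγ. After IFNγ, both siNC libraries lay above both unstimulated siNC libraries in 184 of the 188 genes (97.9%), and the median ratio of the means was 1.75. The same order held in 36.7% of all 17982 genes tested and in 92.8% of 963 other coding genes of similarly low GC content, described further on. Both siPDL1-2 libraries given IFNγ still lay above both unstimulated siNC libraries in 182 genes (96.8%), with a median ratio of 1.502, against 36.8% of all genes and 68.3% of the low-GC genes. Against siNC given IFNγ, both siPDL1-2 libraries given IFNγ lay above in 21 genes (11.2%) and below in 127 (67.6%). The shares were 30.5% and 34.1% of all genes, and 10.8% and 72.5% of the low-GC genes. The unstimulated siPDL1-2 mean was 1.04 times the siNC mean after IFNγ at the median, with a range from 0.256 to 2.80. Within siPDL1-2, IFNγ went with lower levels: both unstimulated libraries lay above both IFNγ libraries in 155 genes (82.4%) and below both in 12, and the median ratio of IFNγ to unstimulated was 0.807. They lay above in 34.3% of all genes and in 65.8% of the low-GC genes, and below in 30.8% and 14.2%. These groups all entered the rule, so the values are a description.

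On the log2(CPM + 1) scale used for every log2 value here, the median difference of the 188 genes from the unstimulated siNC mean was 0.81 and 0.90 in unstimulated siPDL1-2 libraries 1 and 2. It was 0.74 and 0.81 in the siNC libraries given IFNγ, and 0.60 and 0.54 in the siPDL1-2 libraries given IFNγ. Unstimulated siPDL1-1 stayed near the control, at 0.02 and 0.04. The siPDL1-1 libraries given IFNγ were at 0.44 in library 1 and 0.84 in library 2, the widest gap between libraries of 1 group. The 963 other low-GC genes were at 0.32 and 0.37 in unstimulated siPDL1-2, -0.06 and -0.06 in unstimulated siPDL1-1, 0.38 and 0.44 in siNC given IFNγ, 0.14 and 0.34 in siPDL1-1 given IFNγ and 0.23 and 0.18 in siPDL1-2 given IFNγ. Their highest library was siNC library 2 given IFNγ. That of the 188 genes was unstimulated siPDL1-2 library 2, from a group that the rule required to be high. The rule also capped unstimulated siPDL1-1 and siPDL1-2 given IFNγ, so these values of the 188 genes are a description.

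**Figure D1:**
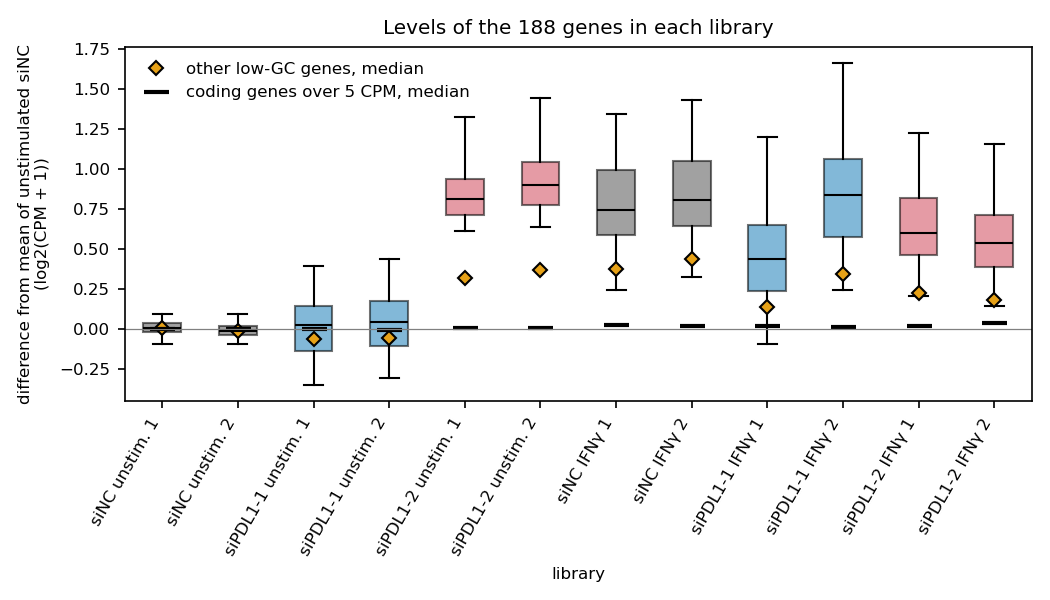
Difference of each of the 188 genes from the mean of the unstimulated siNC libraries, on the log2(CPM + 1) scale, in each of the 12 libraries. Boxes span the quartiles with the median as a line, whiskers the 5th to 95th percentile, diamonds the median of 963 other coding genes of low GC content and bars the median of coding genes above 5 CPM. The genes are high in unstimulated siPDL1-2 and in all 6 libraries given IFNγ, with siPDL1-1 library 1 the lowest of these.

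The ratio that chose the genes ran from 1.501 to 2.66 with a median of 1.63, and 14 genes reached 2. Their mean over all libraries ran from 5.03 to 436 CPM with a median of 31.0 CPM, and all 188 passed the filter on low counts. Just inside the limit were *TPD52*, *BMPR1B* and *GNAQ* with ratios of 1.5025, 1.5011 and 1.5011. Just outside it were *ARMT1*, *TP53INP1* and *TMEM161B-AS1* with 1.4996, 1.4994 and 1.4987. At the limit after IFNγ, *SPOPL* had a ratio of 1.192 and *ABCA13*, outside it, 1.22, and 23 genes met the unstimulated limit but not this one. In the fit across 17982 genes, 184 of the 188 were called as higher with siPDL1-2 than with siNC in unstimulated cells (limma, FDR < 0.01 and fold change > 1.5), against 4.84% of all genes, which follows from the choice.

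The following grouping by known role was made after the values were seen and carries no test. The largest group, 15 genes, serves the secretory pathway and membrane traffic. *TMED7*, a p24 family cargo receptor between endoplasmic reticulum (ER) and Golgi, lay at chr5:115613210-115632992 and had in unstimulated cells 43.6 and 46.3 CPM with siNC, 45.7 and 47.8 CPM with siPDL1-1 and 118 and 129.6 CPM with siPDL1-2. After IFNγ it had 138 and 140.5 CPM with siNC, 88.01 and 142 CPM with siPDL1-1 and 112 and 97.5 CPM with siPDL1-2. The unstimulated siPDL1-2 libraries stood clear of the other unstimulated libraries, and all 6 libraries given IFNγ lay above those of unstimulated siNC and siPDL1-1.

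*SCAMP1*, a secretory carrier membrane protein, had 28.99 and 25.99 CPM with siNC, 33.2 and 33.2 CPM with siPDL1-1 and 70.2 and 73.4 CPM with siPDL1-2 in unstimulated cells. Its values after IFNγ were 65.1 and 67.9 CPM with siNC, 50.5 and 78.6 CPM with siPDL1-1 and 53.8 and 45.9 CPM with siPDL1-2. Both siPDL1-2 libraries were lower with IFNγ than without it, and siPDL1-1 libraries 1 and 2 lay on either side of siNC. *GOLT1B*, a Golgi transport protein, had 14.7 and 14.2 CPM with siNC, 18.7 and 19.3 CPM with siPDL1-1 and 40.6 and 43.1 CPM with siPDL1-2 in unstimulated cells and 35.6 and 41.2 CPM with siNC, 32.7 and 47 CPM with siPDL1-1 and 34.9 and 31.7 CPM with siPDL1-2 after IFNγ.

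*SPCS3*, a subunit of the signal peptidase, had 67.4 and 69.3 CPM with siNC, 78.2 and 79.4 CPM with siPDL1-1 and 142 and 145 CPM with siPDL1-2 in unstimulated cells. *TRAM1*, which works beside the ER translocon, had 55.4 and 59.3 CPM with siNC, 59.7 and 64.2 CPM with siPDL1-1 and 99.9 and 108 CPM with siPDL1-2, and *LMAN1*, a lectin that carries glycoproteins out of the ER, had 75.7 and 74.04 CPM with siNC, 81.9 and 81.2 CPM with siPDL1-1 and 124 and 127 CPM with siPDL1-2. In these 3 genes siPDL1-1 lay slightly above siNC and well below siPDL1-2. Others of the group are *TMED5*, *SRP9*, *VAMP4*, *AP1S2*, *AP5M1*, *TM9SF3*, *BCAP29* and *RAB18*. Across the 15 genes, the ratio that chose them ran from 1.51 to 2.46, and the siPDL1-2 mean was lower with IFNγ than without it in 13.

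*RAB27B*, a GTPase of regulated secretion and exosome release, had the highest ratio of IFNγ to unstimulated of all 188 genes with siNC. It had 1.37 and 2.25 CPM with siNC, 1.16 and 1.2 CPM with siPDL1-1 and 3.81 and 4.36 CPM with siPDL1-2 in unstimulated cells. With IFNγ these were 14.7 and 17.1 CPM with siNC, 9.93 and 12.7 CPM with siPDL1-1 and 11.96 and 10.3 CPM with siPDL1-2. The siNC mean after IFNγ was 8.80 times that without it, and *RAB27B* was the only 1 of the 188 whose siPDL1-2 mean was more than 2 times higher with IFNγ than without it, at 2.72 times.

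Another 8 genes make or modify glycans or GPI anchors. *CASD1*, which acetylates sialic acid, had 5.88 and 5.87 CPM with siNC, 8.12 and 7.46 CPM with siPDL1-1 and 17.97 and 18.5 CPM with siPDL1-2 in unstimulated cells. After IFNγ it had 13.5 and 13.8 CPM with siNC, 12.3 and 15.9 CPM with siPDL1-1 and 13.9 and 12.8 CPM with siPDL1-2. Here unstimulated siPDL1-2 lay above every other library of the series. *ALG10B* and *ALG6* add glucose to the lipid-linked precursor of N-glycans, and *ALG10B* had 12.4 and 11.7 CPM with siNC, 12.1 and 11.5 CPM with siPDL1-1 and 24.1 and 27.04 CPM with siPDL1-2. *B3GNT5*, which starts the lacto-series glycolipids, had 13.9 and 16.2 CPM with siNC, 11.6 and 12.4 CPM with siPDL1-1 and 30.7 and 33.9 CPM with siPDL1-2, and its libraries given IFNγ remained below unstimulated siPDL1-2, with 16.7 and 17.7 CPM with siNC, 12 and 15.5 CPM with siPDL1-1 and 21.6 and 18.7 CPM with siPDL1-2. *C1GALT1*, *MANEA*, *SLC35A3* and *PGAP1* complete the group, whose ratios ran from 1.51 to 2.21.

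Of the Polycomb proteins, which keep genes silent through histone marks, 3 were among the 188. *BMI1*, a subunit of Polycomb repressive complex 1, lay at chr10:22321099-22331484 and had 30.1 and 29.5 CPM with siNC, 29.8 and 30.2 CPM with siPDL1-1 and 63.95 and 68.2 CPM with siPDL1-2 in unstimulated cells. IFNγ gave 67.9 and 73.1 CPM with siNC, 44.3 and 65.9 CPM with siPDL1-1 and 51.5 and 47.7 CPM with siPDL1-2. Its siNC and siPDL1-1 libraries did not differ by more than 1 CPM without IFNγ. *PCGF5*, a relative of *BMI1*, had 45.4 and 43.5 CPM with siNC, 45.4 and 44.3 CPM with siPDL1-1 and 86.8 and 96.4 CPM with siPDL1-2 in unstimulated cells and 121 and 121 CPM with siNC, 114 and 163 CPM with siPDL1-1 and 106 and 100.3 CPM with siPDL1-2 after IFNγ, where siPDL1-1 library 2 was the highest of all. *SUZ12*, of Polycomb repressive complex 2, had 52.9 and 50.03 CPM with siNC, 42.8 and 44.01 CPM with siPDL1-1 and 86.9 and 86.6 CPM with siPDL1-2 in unstimulated cells and had the lowest ratio of the 3, at 1.64.

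Signaling proteins formed further groups. *NRAS*, a Ras GTPase, had 136 and 138 CPM with siNC, 121 and 123 CPM with siPDL1-1 and 208 and 221 CPM with siPDL1-2 in unstimulated cells. With *RAP2C*, *GNAQ*, *GNB4* and *GNG10*, the siPDL1-2 mean was lower with IFNγ than without it in 5 of 5 of these G proteins. *SMAD5*, the transducer of bone morphogenetic protein signals, had 51.6 and 52.6 CPM with siNC, 43.1 and 44.5 CPM with siPDL1-1 and 102 and 105 CPM with siPDL1-2 in unstimulated cells. Its IFNγ values were 79.3 and 82.1 CPM with siNC, 53.03 and 66.9 CPM with siPDL1-1 and 76.8 and 75.4 CPM with siPDL1-2, with siPDL1-1 the lowest and unstimulated siPDL1-2 above every other library. The receptors *BMPR2* and *BMPR1B* had ratios of 1.54 and 1.501, and *SKIL*, a SMAD repressor, had 1.59. *IL6ST*, the gp130 receptor subunit of the IL6 family, had 139 and 138 CPM with siNC, 121 and 119.8 CPM with siPDL1-1 and 226 and 226 CPM with siPDL1-2 in unstimulated cells.

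A group of 10 genes attaches or removes ubiquitin or NEDD8. *UBE2W*, an enzyme that ubiquitinates the N terminus of proteins, had 7.002 and 8.098 CPM with siNC, 13.1 and 12.9 CPM with siPDL1-1 and 25.9 and 27.2 CPM with siPDL1-2 in unstimulated cells and 18.6 and 20.2 CPM with siNC, 22.2 and 30.2 CPM with siPDL1-1 and 22.99 and 18.97 CPM with siPDL1-2 after IFNγ. Unstimulated siPDL1-1 lay above siNC without overlap, though below siPDL1-2. The conjugating enzymes *UBE2D1* and *UBE2B*, the NEDD8 ligases *DCUN1D1* and *DCUN1D4* and the deubiquitinase *YOD1*, with *HECTD2*, *RNF217*, *MARCHF1* and *SPOPL*, complete the group.

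The next 8 genes encode mitochondrial proteins, a grouping that is not complete. *ETFRF1*, a regulator of the electron transfer flavoprotein and the gene with the highest ratio, lay at chr12:25195216-25209645 and had 2.94 and 2.86 CPM with siNC, 2.84 and 2.78 CPM with siPDL1-1 and 7.81 and 9.92 CPM with siPDL1-2 in unstimulated cells. With IFNγ the libraries held 8.82 and 9.19 CPM with siNC, 5.56 and 9.503 CPM with siPDL1-1 and 6.04 and 5.06 CPM with siPDL1-2. The carriers *SLC25A36*, *SLC25A40* and *SLC25A46*, the complex I subunit *NDUFA5*, *HIGD1A*, *LYRM7* and *GRPEL2* are the others of this group.

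Among the remaining genes of high ratio, *GMFB*, glia maturation factor beta, had 24.1 and 24.5 CPM with siNC, 24.97 and 24.5 CPM with siPDL1-1 and 55.8 and 58.5 CPM with siPDL1-2 in unstimulated cells. After IFNγ its levels were 64.4 and 69.4 CPM with siNC, 43.6 and 64.97 CPM with siPDL1-1 and 45.97 and 39.9 CPM with siPDL1-2. *SLC30A1*, the zinc exporter of the plasma membrane, had 15.5 and 15.8 CPM with siNC, 13.5 and 12.99 CPM with siPDL1-1 and 32.97 and 34.6 CPM with siPDL1-2 in unstimulated cells and 37.9 and 37.2 CPM with siNC, 26.5 and 34.2 CPM with siPDL1-1 and 34.4 and 34.8 CPM with siPDL1-2 after IFNγ. *CLIC4*, an intracellular chloride channel protein, had 231 and 236 CPM with siNC, 238 and 237 CPM with siPDL1-1 and 478 and 505 CPM with siPDL1-2 in unstimulated cells and 342 and 352 CPM with siNC, 333 and 425 CPM with siPDL1-1 and 341 and 306 CPM with siPDL1-2 after IFNγ. For *GMFB* and *SLC30A1* the siNC level after IFNγ was above that of unstimulated siPDL1-2, whereas for *CLIC4* it was below. *FP565260.6*, which GENCODE marks as an artifact, *ZBTB41*, *ZDHHC21*, *TMEM170B*, *MMGT1*, *SH3BGRL*, *PCMTD1*, *SLCO1B3* and *C21orf91* complete the 25 genes of highest ratio with those described above and below, and their ratios ran from 1.91 to 2.58.

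**Figure D2:**
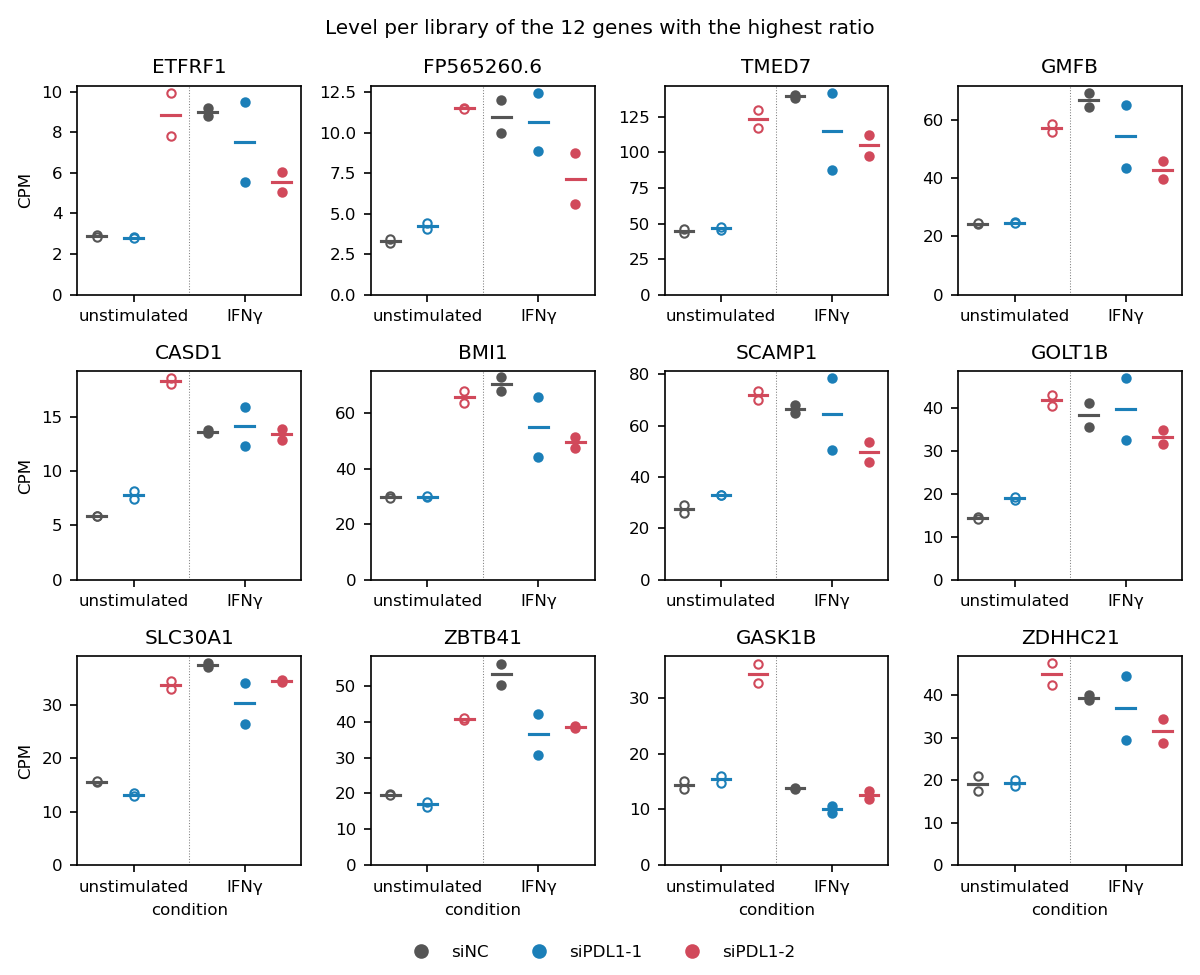
Level in CPM of the 12 genes with the highest ratio, from *ETFRF1* at 2.66 to *ZDHHC21* at 2.04, in each of 12 libraries, with a short line at the mean of each group of 2. Open points are unstimulated and filled points IFNγ. In 11 of the 12 panels both siNC libraries are higher after IFNγ than without it, and *GASK1B* is the panel where they are not.

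In 4 of the 188 genes the siNC mean after IFNγ was below that without it, unlike in the others. *PI15*, a peptidase inhibitor, had 84.1 and 80.2 CPM with siNC, 90.6 and 92.6 CPM with siPDL1-1 and 177 and 197 CPM with siPDL1-2 in unstimulated cells. In stimulated cells it had 65.6 and 67.7 CPM with siNC, 73.1 and 109.8 CPM with siPDL1-1 and 70.4 and 59.4 CPM with siPDL1-2. *GASK1B*, a Golgi protein of the kinase-like FAM198 family, had 15.1 and 13.6 CPM with siNC, 15.98 and 14.8 CPM with siPDL1-1 and 32.6 and 36.1 CPM with siPDL1-2 in unstimulated cells and 13.8 and 13.7 CPM with siNC, 9.39 and 10.6 CPM with siPDL1-1 and 13.2 and 11.9 CPM with siPDL1-2 after IFNγ. Unstimulated siPDL1-2 stood above the other 10 libraries in both genes. *RCAN1*, an inhibitor of calcineurin, had 56.1 and 58.5 CPM with siNC, 51.3 and 50.6 CPM with siPDL1-1 and 107 and 108 CPM with siPDL1-2 without IFNγ and 45.2 and 46.8 CPM with siNC, 45.1 and 42.1 CPM with siPDL1-1 and 48.3 and 47.1 CPM with siPDL1-2 with it. *DNAH5*, an axonemal dynein chain, was the remaining 1, with 5.34 and 5.39 CPM with siNC, 4.699 and 4.85 CPM with siPDL1-1 and 8.96 and 8.85 CPM with siPDL1-2 in unstimulated cells. The siPDL1-2 mean with IFNγ was 0.347, 0.365 and 0.444 times that without it in *PI15*, *GASK1B* and *RCAN1*, the lowest ratios of the 188, and *ITGB8*, an integrin subunit, followed with 0.489.

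The other siRNA against *PD-L1*, siPDL1-1, was compared with siNC first in unstimulated cells. All 4 of these libraries set the ceiling of the rule, so any gene that both siRNAs raise alike was not chosen, and the values are a description with no test. In the fit, 3 of the 188 were called higher, beside 2.55% of all genes tested, and 2 lower, beside 1.45%. The median log2 difference was 0.04, beside 0.02 over all genes.

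*ZMAT3*, an RNA-binding target of p53, had 12.98 and 11.3 CPM with siNC, 21.99 and 19.4 CPM with siPDL1-1 and 35.8 and 40.2 CPM with siPDL1-2, a log2 difference between siPDL1-1 and siNC of 0.73 ± 0.09 (SE). The difference was 0.71 ± 0.13 in *UBE2W* and, in *SH3BGRL*, a small protein of the thioredoxin fold with 23.6 and 22.95 CPM with siNC, 39.6 and 37.4 CPM with siPDL1-1 and 77.01 and 79.2 CPM with siPDL1-2, 0.70 ± 0.14. *CD164*, a sialomucin, had 99.1 and 91.1 CPM with siNC, 44.96 and 41.8 CPM with siPDL1-1 and 171 and 180.2 CPM with siPDL1-2 and a log2 difference of -1.11 ± 0.12. *SOX2-OT*, a long noncoding RNA whose region contains *SOX2*, had 39.95 and 38.8 CPM with siNC, 24.9 and 25.96 CPM with siPDL1-1 and 63.04 and 66.5 CPM with siPDL1-2 and a log2 difference of -0.61 ± 0.08. In these 5 genes the siPDL1-1 and siNC libraries did not overlap. Without siPDL1-1 library 1, 1 gene was called higher and 1 lower.

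After IFNγ, the siNC libraries had been the base of the 1.2 limit, so a low value against them was favoured by the rule. With limma and Benjamini-Hochberg adjustment over 17982 genes, 0 of the 188 rose with siPDL1-1, against 3.73% of all genes. At an unadjusted p under 0.05, 17 were above siNC and 59 below it, beside 21.3% and 22.4% of all genes. The edgeR and DESeq2 tests called 1 each as higher and 2 each as lower. By limma 3 fell, against 1.75% of all genes, namely *CD164*, *HSPA13* and *MARCKS*. *CD164* had 201 and 209 CPM with siNC, 96.6 and 130.3 CPM with siPDL1-1 and 167 and 152 CPM with siPDL1-2 after IFNγ and fell by 0.86 ± 0.12 (adjusted p = 5.3e-04). *HSPA13*, a microsomal Hsp70 relative, had 49.4 and 52.6 CPM with siNC, 26.6 and 34.9 CPM with siPDL1-1 and 46.4 and 42.2 CPM with siPDL1-2 and fell by 0.72 ± 0.10 (adjusted p = 6.2e-05). *MARCKS*, a membrane-bound substrate of protein kinase C, had 360.4 and 373 CPM with siNC, 206 and 289 CPM with siPDL1-1 and 295 and 301 CPM with siPDL1-2 and fell by 0.59 ± 0.13 (adjusted p = 0.0097).

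The median log2 difference of the 188 genes in that comparison was -0.14, beside -0.005 over all genes, and 144 of 188 lay below 0. It was -0.18 in the low-GC genes that are not among the 188, and -0.04 in the 188 with the trend on GC content and length removed, as described further on. The count that fell moved with single libraries. Without siPDL1-1 library 2 it was 30, and without siPDL1-1 library 1 it was 1, with 8 that rose. Leaving out siNC library 1 gave 5 and leaving out siNC library 2 gave 1.

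The effect of IFNγ in cells with siPDL1-1 was examined next. The libraries given IFNγ entered the rule only through the mean of all 12, but the unstimulated siPDL1-1 libraries were held under its ceiling, which favours a rise. Of the 188, 94 rose, or 50% of them, against 5.58% of all genes. Both libraries given IFNγ lay above both without it in 175 of the 188 (93.1%). The same order held in 31.5% of all genes and in 76.6% of the 963 other low-GC genes. By limma 0 fell, against 1.3% of all genes, and 1 each by edgeR and DESeq2. At an unadjusted p under 0.05 in limma, 174 were higher with IFNγ and 2 lower, beside 22.6% and 19.9% of all genes. The median log2 difference was 0.59, beside -0.02 over all genes, and 183 of 188 lay above 0.

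*RAB27B* rose most, by 2.49 ± 0.15 on the log2 scale (adjusted p = 5.7e-09). The unstimulated base of these differences was held down by the rule, so the adjusted p-values given here lean towards a rise. *C21orf91* had 5.29 and 6.12 CPM with siNC, 8.88 and 8.38 CPM with siPDL1-1 and 16.9 and 18.95 CPM with siPDL1-2 in unstimulated cells and 23.97 and 24.98 CPM with siNC, 29.3 and 42.2 CPM with siPDL1-1 and 22.6 and 18.97 CPM with siPDL1-2 after IFNγ, and rose by 1.91 ± 0.14 (adjusted p = 5.1e-07). *KPNA5*, an importin alpha, had 7.74 and 7.67 CPM with siNC, 10.3 and 9.603 CPM with siPDL1-1 and 17.9 and 18.5 CPM with siPDL1-2 without IFNγ and 25.02 and 28.2 CPM with siNC, 27.5 and 37.3 CPM with siPDL1-1 and 29.8 and 25.2 CPM with siPDL1-2 with it, and rose by 1.59 ± 0.12 (adjusted p = 1.8e-07). *PCGF5* rose by 1.58 ± 0.13 (adjusted p = 2.6e-05). *STARD4*, a sterol carrier, had 30.99 and 27.4 CPM with siNC, 32.2 and 32.7 CPM with siPDL1-1 and 56.7 and 61.4 CPM with siPDL1-2 without IFNγ and 67.5 and 69.1 CPM with siNC, 77.9 and 99.2 CPM with siPDL1-1 and 59.3 and 59.7 CPM with siPDL1-2 with it, and rose by 1.41 ± 0.09 (adjusted p = 6.9e-08). In these 5 genes both siPDL1-1 libraries given IFNγ lay above both without it.

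*AC116366.2* was not called at 1.87 ± 0.64 (adjusted p = 0.069), and *GASK1B*, at -0.57 ± 0.09 (adjusted p = 1.1e-04), missed the fold change limit.

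The count of 94 moved with the libraries and the filter. It was 47 without IFNγ library 2 and 135 without IFNγ library 1, and 62 without unstimulated library 1. It was also 62 when only these 4 libraries were fitted and 11 without the filter on low counts. The effect of IFNγ with siPDL1-1 differed from that with siNC in 0 of the 188 genes by the interaction term in limma, against 0.968% of all genes, and in 33 at an unadjusted p under 0.05, 30 of them below 0, beside 6.96% of all genes above and 8.53% below 0. The siNC and the unstimulated libraries in this term were used by the rule, so the count is a description.

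**Figure D3:**
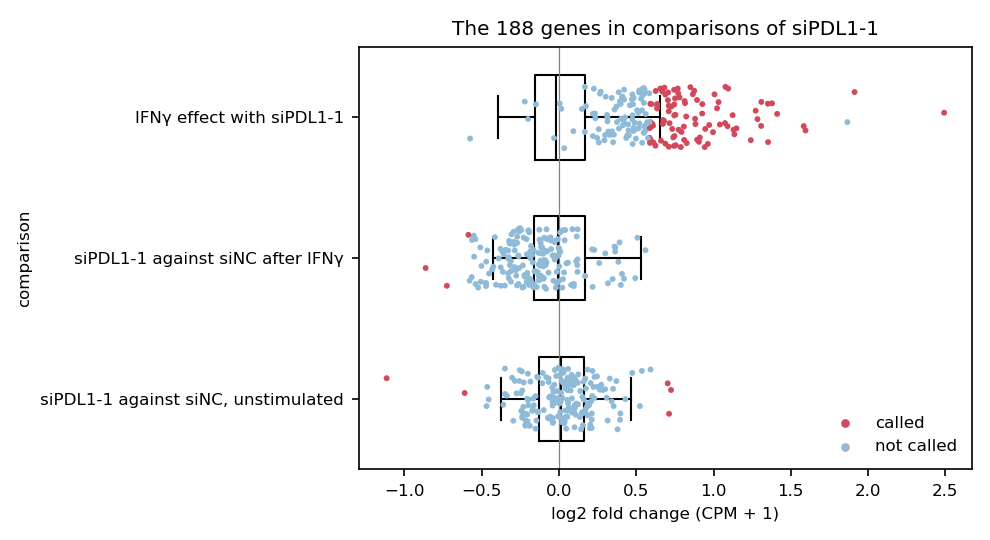
Log2 fold change of each of the 188 genes (points, with vertical jitter) in the comparisons of siPDL1-1. Boxes show the quartiles, median and 5th to 95th percentile of all 17982 genes tested, and red points are called at FDR < 0.01 and fold change > 1.5. The points lie around 0 in unstimulated cells, with 3 called above and 2 below, and mostly above 0 for IFNγ, with 94 called.

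Between the libraries of siPDL1-1 given IFNγ, which have the same treatment, library 2 was above library 1 in 185 of the 188 genes, with a median ratio of 1.31. The ratio was the widest in *AC116366.2*, with 15.7 and 16.1 CPM with siNC, 8.29 and 19.99 CPM with siPDL1-1 and 9.03 and 11.8 CPM with siPDL1-2 after IFNγ. Of 963 other genes of low GC content, 901 were higher in library 2, or 93.6%, whereas 46.3% of 10925 other coding genes above 5 CPM were. Library 2 held 21870032 reads on genes and library 1 36339967.

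What the 188 genes shared beyond the rule was base composition. GENCODE transcripts were found for all of them, and 186 were protein coding. Their canonical transcripts had a median GC content of 36.2% (quartiles 34.5% and 37.5%), beside 48.1% for the 10925 other coding genes above 5 CPM. Of the 186, 185 lay under the median of all such genes and 149, or 80.1%, in the lowest 10%, at or under 38.2%. *MANEA* was the lowest with 31.9% and *RCAN1* the highest with 47.9%, and 13.4% of the 1112 genes in that lowest class were among the 188.

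The difference lay in both parts of the mRNA. The coding sequence had a median GC content of 42.4% beside 52.0%, and the 3′ UTR 32.5% beside 42.2%. The 3′ UTR was 3614 bases long at the median beside 1380, and 167 of 186 were above the median of all such genes, while the coding sequence was 1014 bases beside 1437. The whole transcript was 4967 bases beside 3457. The GC content of the promoter was given above, at 67.2% beside 65.3%.

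**Figure D4:**
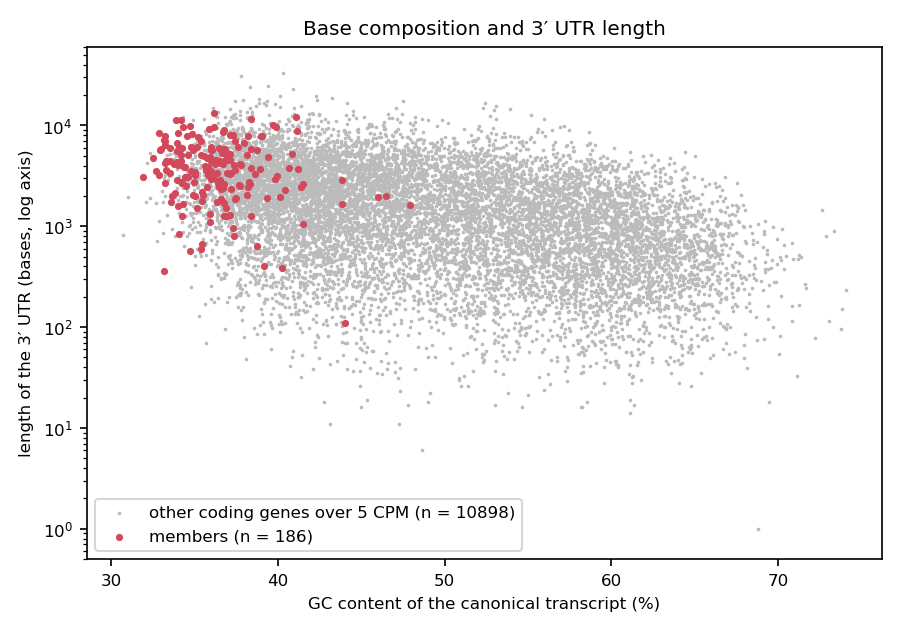
GC content of the canonical transcript (percent) against the length of its 3′ UTR (bases, log axis) for 186 coding genes of the 188 (red) and 10898 other coding genes above 5 CPM with a 3′ UTR (grey). The red points gather at the low-GC edge, mostly under 38.2%, and mostly above the median 3′ UTR length of 1410 bases.

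GC content also ordered the genes that were not chosen. Among other coding genes above 5 CPM, the 10% of lowest GC content had a median log2 difference of 0.34 between siPDL1-2 and siNC in unstimulated cells, and the 10% of highest GC content -0.21. For IFNγ with siNC these were 0.41 and -0.23, and with siPDL1-1 0.29 and -0.08. For IFNγ with siPDL1-2 the order was turned, with -0.15 and 0.23. The unstimulated difference between siPDL1-1 and siNC was -0.06 and 0.08.

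**Figure D5:**
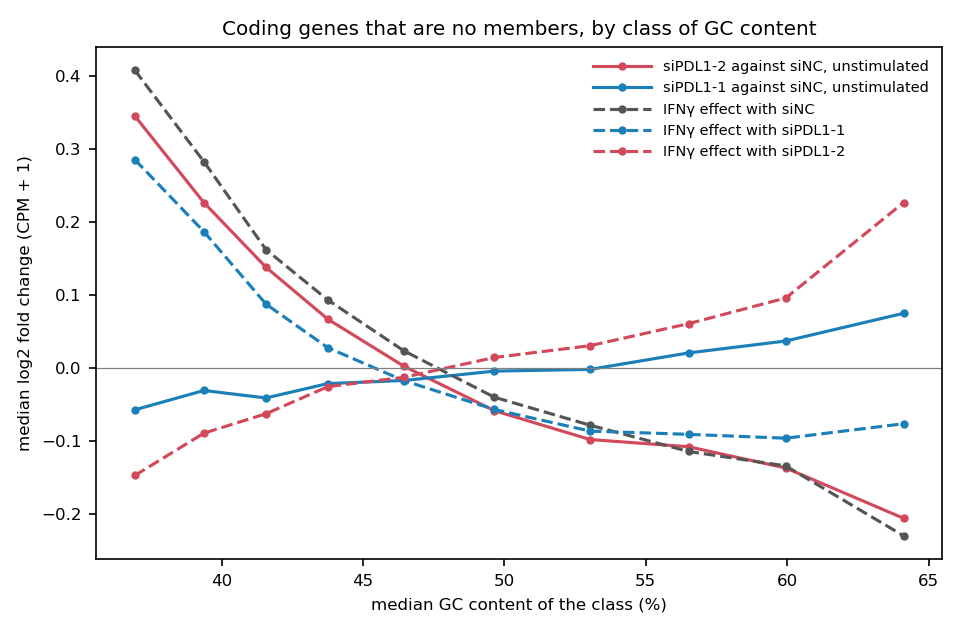
Median log2 fold change in each of 10 equal classes of GC content (x axis, median GC of the class in percent) over coding genes above 5 CPM that are not among the 188. Solid lines are siRNA against siNC in unstimulated cells and dashed lines the effect of IFNγ. The lines for siPDL1-2 without IFNγ and for IFNγ with siNC fall together from 0.34 and 0.41 to -0.21 and -0.23.

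When each library's trend on GC content and transcript length was removed, an alternative chosen after seeing the data, 18 of the 188 genes still met the rule. Their median GC content was 39.96%, beside 35.99% in those that did not. The median ratio over the 188 was then 1.25, and 168 lay below 1.5. The highest were *FP565260.6* with 2.32, *TMED7* with 1.88, *RCAN1* with 1.83, *ETFRF1* with 1.82, *BMI1* with 1.81, *SLC30A1* with 1.80, *CASD1* with 1.78, *GASK1B* with 1.71 and *MARCKS* with 1.70. *SYNC*, *TMEM170B*, *AC116366.2*, *SOX2-OT*, *CLIC4*, *GMFB*, *SMAD5*, *SCAMP1* and *RAP2C* completed the 18. The count that rose with IFNγ in siPDL1-1 cells was 33 of 188 under the same removal, with a median of 0.26. The removal also takes away any response that itself follows GC content or length, and such a response and a trend of the libraries cannot be told apart.

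The 16 lists of pathway genes held 5 of the 188, 1 each in 5 lists. In unstimulated cells, 22 of the 359 listed genes tested were called higher with siPDL1-2 than with siNC and 34 lower. Of all 17982 genes tested, 870 (4.84%) were called higher and 240 lower. *ZMAT3* belongs to the p53 targets, of which 3 of 20 were called higher and 2 lower with siPDL1-2 than with siNC in unstimulated cells. *DUSP6*, a phosphatase of ERK, had 6.12 and 6.05 CPM with siNC, 5.92 and 5.48 CPM with siPDL1-1 and 9.97 and 9.46 CPM with siPDL1-2, and 4 of 28 immediate early and MAPK feedback genes were called higher and 2 lower. *SKIL* had 11.9 and 11.9 CPM with siNC, 16.3 and 14.5 CPM with siPDL1-1 and 25.9 and 27.2 CPM with siPDL1-2, and 1 of 26 TGF-beta and matrix genes was called higher and 3 lower. *STARD4* is 1 of the cholesterol and fatty acid genes, with 2 of 27 higher and 1 lower, and *CLIC4* 1 of the ion channel and transporter genes, with 3 of 17 higher and 0 lower. No member stood in the lists of ATF4, interferon, cell cycle or NFkB genes.

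By position, 22 of the 188 genes were on chromosome 5, or 4.10% of its genes above 5 CPM, beside 1.62% over all chromosomes. There were 23 on chromosome 1, or 1.95%, and 1 each on chromosomes 15, 16 and 17. Chromosome Y held 2, of 10 genes above 5 CPM. For 45 genes, another gene with at least 10% of their level overlapped, on the same strand for 20 and on the opposite for 28, and the reads of such pairs were not separated by strand. *TMED7* shares its region with the readthrough gene *TMED7-TICAM2*, *BMI1* with *COMMD3-BMI1*, *CASD1* with *SGCE*, *SOX2-OT* with *SOX2*, and *AC116366.2* with *IRF1*, which IFNγ induces.

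The libraries held 17101069 to 55657393 reads on genes, and mitochondrial genes took 4.85% to 6.63%. *CD274*, the target of both siRNAs, was at 4.602 and 4.91 CPM with siNC, 2.67 and 2.73 CPM with siPDL1-1 and 3.57 and 3.45 CPM with siPDL1-2 in unstimulated cells and 71.2 and 76.03 CPM with siNC, 60.9 and 66.7 CPM with siPDL1-1 and 37.5 and 35.04 CPM with siPDL1-2 after IFNγ, so it was lower than siNC in all libraries of both siRNAs. Of 12 glioma and astroglial markers 10 reached a mean of 1 CPM, *OLIG2* and *AQP4* being near 0, as did 2 of 4 neuronal, 2 of 4 epithelial, 2 of 4 fibroblast and pericyte, 1 of 3 endothelial, 1 of 5 leukocyte and 0 of 3 oligodendrocyte markers. A lower RNA level per cell and fewer cells of a kind cannot be told apart in bulk libraries.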

How the data were processed

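RNA-seq of 12 libraries of U251 cells in 6 groups, taken from the sample labels, was analysed. The authors aligned trimmed reads to GRCh38 (Ensembl) with CLC Genomics Workbench, took both strands together in the gene totals and normalized the result. The signal values, as deposited by the authors, are these normalized CPM, 1 column per library, and 100% of the values of each library were whole multiples of 1 read (within 0.01 reads), from which reads were recovered. Read numbers ranged from 17101069 to 55657393 per library. Intervals of single values were not computed.

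The 188 genes, the gene lists and the tests were chosen with earlier results of these data known. *CXCL9* and *UBD*, at 0 in the unstimulated libraries, were not counted as meeting the rule. Groups were compared with limma (trend and robust) on log2(CPM + 1), that is with a pseudocount of 1, in 1 fit of 12 libraries, over genes kept by filterByExpr (minimum count 10, minimum total 15), with Benjamini-Hochberg adjustment over all of them. A gene was called where FDR < 0.01 and fold change > 1.5. Where both groups set the rule, calls are given as a description, with no p-value. This holds also for siPDL1-1 against siNC in unstimulated cells, which had been planned as a test. For the interaction term, which used libraries of the rule, the counts at an unadjusted p under 0.05 are a description too. Named genes are the 25 of highest ratio, those in a gene list, the 5 largest called changes in each direction and those at the limits of the rule. Others were named by role after their values were seen, and results that need certain items are not reported here. GC content and lengths are those of canonical transcripts of GENCODE v44.

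Alternatives were edgeR's quasi-likelihood test and DESeq2's Wald test on the recovered reads, a pseudocount of 0.1, no filter, plain CPM, the replicate number as a block, only the 4 libraries compared, leaving out each library, other limits of the rule and, added later, removal of trends on GC content and length. On simulated data without a trend on GC content, the fit recovered planted changes that lay above the fold change limit. That setting does not show how calls near the limit behave in these libraries. Replicate libraries differed by more than sampling noise. The fits were run with limma 3.58.1, DESeq2 1.42.0 and edgeR 4.0.16 under R 4.3.3, and the tables and figures were made in Python 3.11.15 with pandas 2.3.3, matplotlib 3.10.9 and numpy 2.4.6.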

Additional observations from a re-analysis of the deposited data

How the results depend on the processing

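The number of genes meeting the rule was 584 with a ratio of 1.3, 14 with a ratio of 2 and 20 with the trend on GC content and length removed, of which 18 were among the 188 and 2 were new. It ran from 181 to 270 when 1 library was left out, and from 166 to 227 under the other limits on level and on IFNγ and with plain CPM. Between siPDL1-1 and siNC in unstimulated cells, 5 of the 188 were called higher with a pseudocount of 0.1, 0 higher and 0 lower without the filter, and 1 lower with the trend removed. Leaving out 1 library gave 1 to 2 higher and 1 to 2 lower. After IFNγ, 1 rose by edgeR, by DESeq2, with a pseudocount of 0.1 and with the trend removed, and 0 fell without the filter. Leaving out 1 library gave 0 to 8 that rose and 1 to 30 that fell. For IFNγ with siPDL1-1, 11 rose without the filter, 62 with only the 4 libraries, and 33 with the trend removed, and 47 to 135 when 1 library was left out. There 1 fell by edgeR, by DESeq2, with a pseudocount of 0.1, with plain CPM and with the trend removed, and 0 to 1 when 1 library was left out. What moved these counts was not tested for any setting. With the replicate number as a block, 4 were called higher and 2 lower in unstimulated cells, 0 and 3 after IFNγ, and 93 and 0 for IFNγ with siPDL1-1. The labels give no pairing beyond the number: deviations of libraries with the same number correlated between -0.14 and 0.21 over 15 pairs of groups, 2 of them over 0.1, across genes. With 2 libraries a group, 1 library can decide a count. The depth of 17101069 reads or more sets the counting error of genes near 5 CPM.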
